A study of Bos taurus with 12 samples.

Results

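Leukocyte marker genes are 34 genes whose transcripts are made mostly by white blood cells, here followed in skeletal muscle of cattle given growth-promoting drugs. They were chosen by name, with earlier results of these data known, so shares over all genes are given beside their counts as description only. Each is represented by the brightest probe that the array's gene name, gene number, accession or description ties to it. They comprise 5 pan-leukocyte and signalling genes, 11 T cell genes, 4 cytotoxic lymphocyte genes, 4 B cell genes and 10 macrophage and myeloid genes. All 34 had a probe, and 25 were well above background on at least 4 of 12 arrays and entered the tests, among 13670 genes tested in all.

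Each array held RNA of 1 male animal aged 18 to 20 months, from the biceps brachii, a muscle of the forelimb, taken after slaughter. The 4 dexamethasone+clenbuterol bulls were fed clenbuterol over 28 days, with a dose per head of 2 mg in the opening week, then 4 mg for a week, then 6 mg until the end, together with 0.66 mg of dexamethasone per head during 21 of the days. The 4 dexamethasone bulls had 0.75 mg per head for 42 days in feed, and the 4 control bulls were untreated. Dexamethasone is a synthetic glucocorticoid and clenbuterol a beta-adrenergic agonist. Both treatments differ in dexamethasone dose and length as well as in clenbuterol, so the parts of each cannot be told apart. The study comprised 24 animals, 8 in each group, and hybridised the 4 of each group with the best RNA. The labels give no breed and no interval between the last dose and slaughter.

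Muscle holds few leukocytes beside its fibres, mainly macrophages lying between the fibres and around vessels, with scattered T cells. T cells recognise antigen through a receptor whose signal passes through CD3 chains, CD247 and the kinases LCK and ZAP70, and cytotoxic cells add granule proteins such as granzymes. Resident macrophages carry scavenger and growth factor receptors such as CD163, MRC1, LYVE1 and CSF1R. Glucocorticoids are widely known to lower circulating lymphocyte numbers, and in human monocytes they are known to raise CD163. In a bulk sample, fewer cells of a type and less of a transcript per cell cannot be told apart.

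Levels are given as log2 of the processed signal minus the array's 75th percentile, so a difference of 1 is a doubling of signal, and levels of different genes are not comparable. Between 53.2% and 68.7% of the 42990 spots per array were well above background. Dexamethasone replicates 2 and 3 (58.1% and 53.2%) were low in that share, and so was control replicate 4 (57.2%). Of the 34 members, 22 to 25 were well above background on each dexamethasone+clenbuterol array and 24 to 28 on each control array. On the dexamethasone arrays the count was 24, 16, 10 and 26, so replicates 2 and 3 detected fewer members than any other array. Control replicate 4, with a share of spots between theirs, detected 24. Scan day followed the groups closely: control replicates 1 to 3 were scanned on day 1, and control replicate 4 with replicates 1 to 3 of both treatments on day 2. The fourth array of each treated group was scanned on a day of its own. Differences given below for the other days thus compare arrays of different scan days.

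Dexamethasone replicate 1 stood apart from its group. It held the highest of all 12 values for 12 of the 25 measured members: 4 of 5 pan-leukocyte genes, 6 of 9 macrophage and myeloid genes, NKG7 and BACH2. The T cell genes did not share this, since that animal lay below all 4 controls for 6 of 6 measured T cell members. Skeletal muscle fibre genes moved the other way in it: the mean of 19 fibre genes was -0.69 relative to controls, against 0.02 to 0.31 in the other dexamethasone animals. The part of this animal's tissue composition in the results was not tested. Values without it, on 3 dexamethasone arrays, are given for the members' changes against control. This is done where it turns the direction of a change, alters a call or moves a value by over 1.5 times. The animal was set apart by the members' own values. For the 12 members in which it was highest, a lower dexamethasone mean without it is thus built in.

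**Figure D1:**
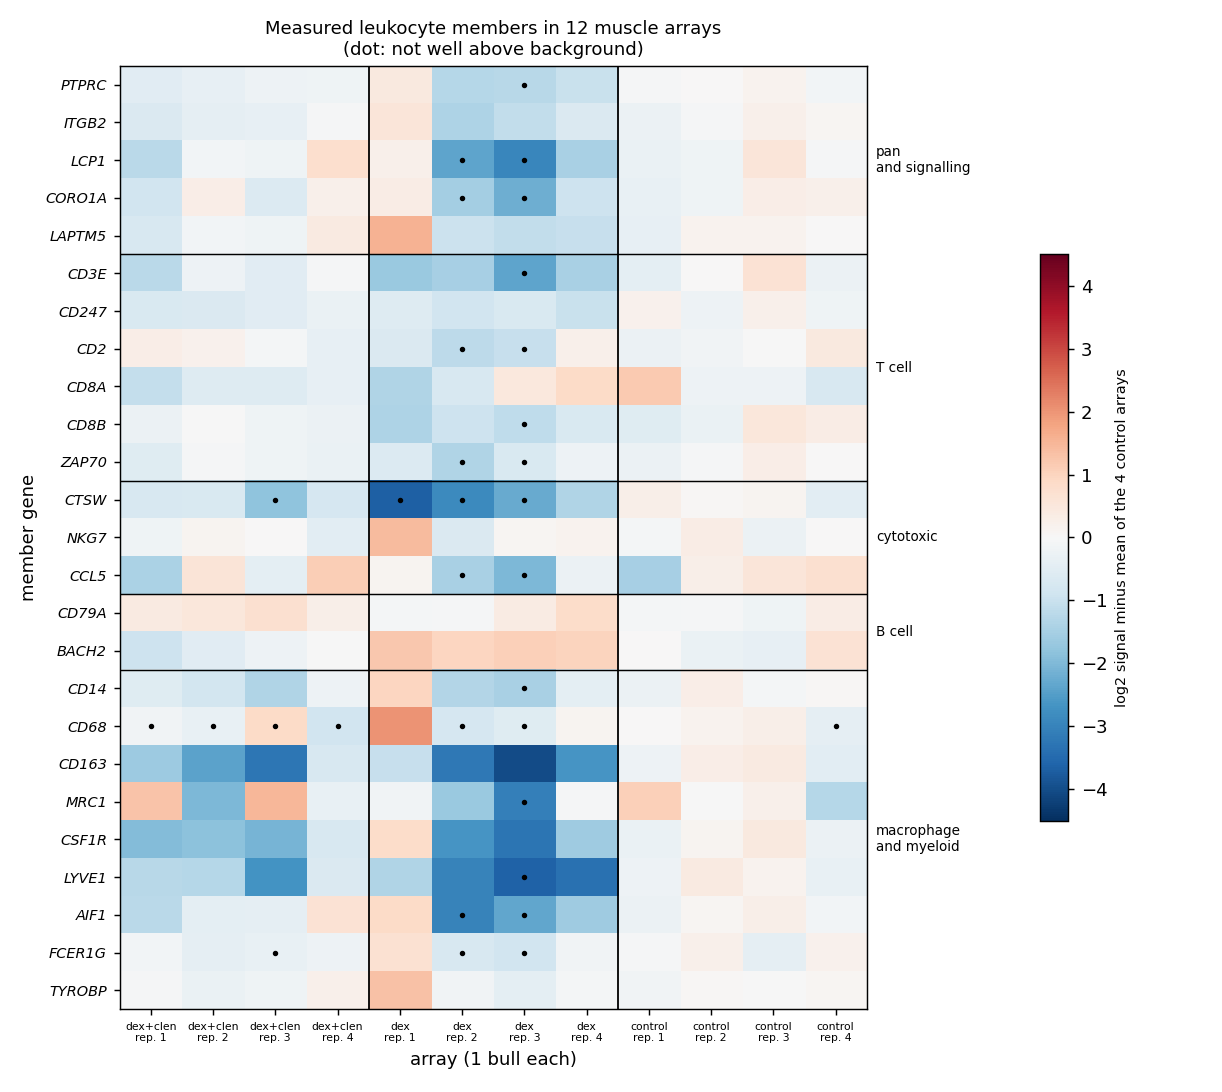
Level of each of the 25 measured members (down) on each of 12 arrays (across, 1 bull each), as log2 signal minus the mean of the 4 control arrays. Red is above and blue below the control mean, and a dot marks a value not well above background. Most macrophage genes are blue in dexamethasone replicates 2 to 4, while replicate 1 is red for many pan-leukocyte and macrophage genes and blue for T cell genes.

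The 9 unmeasured members were mostly lymphocyte genes. CD4, the helper T cell co-receptor, CD79B and MS4A1 (CD20) of B cells, and ITGAM, the myeloid integrin chain CD11b, were not well above background on any of 12 arrays. CD3D, a T cell receptor chain, and CD5, a T cell surface regulator, passed on 1 array each, and granzyme B (GZMB) passed on 2 arrays. CD3G and the kinase gene LCK passed on 3 arrays, just short of the 4 required, while CD68 with 5 arrays was the member just inside. Being dim here limits what the probes could show, and gives no order among these genes. Each of the 25 measured members was well above background in at least 2 of the 3 groups.

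Dexamethasone against control was the comparison with member calls. CTSW, CD3E and LYVE1 fell, so 3 of 25 measured members were called lower at a limma adjusted p under 0.05, against 0.585% of all genes, and 0 of 25 were called higher, against 0.0293% of all genes. Over both directions, 0.614% of all genes were called (84 of 13670). Of the 25 members, 20 had a log2 change below 0, against 45.4% of all genes, and the median change was -0.77, against 0.03 over all genes. At an unadjusted limma p under 0.05 there were 14 of 25 members, against 12.3% of all genes. Values of all 4 dexamethasone bulls lay below all 4 controls for 6 members, against 3.93% of all genes, and above them for 1 member, against 2.52% of all genes. The calls were not stable to the choice of arrays: leaving out control replicate 1, 2 or 3, or dexamethasone replicate 2 or 3, left 0 members called, and leaving out dexamethasone replicate 1 left 10. With scan day 2 against the other days as a block, 13 genes and 0 members were called.

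Among T cell genes, CD3E encodes the epsilon chain of CD3, needed for the T cell receptor to reach the surface and signal. Its level was -4.29, -3.30, -3.59 and -3.14 in dexamethasone+clenbuterol bulls, -4.74, -4.58, -5.45 and -4.54 in dexamethasone bulls, and -3.51, -3.06, -2.43 and -3.34 in controls. All 4 dexamethasone values were below every value of the other groups, and the third was not well above background. Means were -4.83 ± 0.43 in dexamethasone bulls and -3.09 ± 0.48 in controls (SD, n = 4 each). The log2 change against control was -1.74 ± 0.31 (SE), a 3.34-fold lower signal, with a limma adjusted p of 0.0312. Within scan day 2 the difference was -1.58 and on the other days -1.54, each resting on 1 bull in one of its groups. The sign held in all 23 alternative settings in which CD3E was measured, but the call held in 9, with adjusted p between 0.0203 and 0.397.

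The zeta chain CD247, the main signalling chain of the same receptor, was well above background on all 12 arrays. It stood at -1.52, -1.48, -1.33 and -1.12 in dexamethasone+clenbuterol bulls, -1.41, -1.68, -1.52 and -1.83 in dexamethasone bulls, and -0.63, -1.05, -0.61 and -1.02 in controls. Neither treated group overlapped the controls, and both treated groups overlapped each other. The change for dexamethasone against control was -0.78 ± 0.17 with a limma adjusted p of 0.0665, short of the threshold, and without dexamethasone replicate 1 it was -0.85 with an adjusted p of 0.0370.

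CD8B and CD8A encode the paired chains of the cytotoxic T cell co-receptor, and their probes did not move together. CD8B stood at -3.76, -3.53, -3.71 and -3.75 in dexamethasone+clenbuterol bulls, -4.90, -4.42, -4.66 and -4.18 in dexamethasone bulls, and -4.05, -3.80, -2.98 and -3.17 in controls. Every dexamethasone value was below every value of the other groups, and the change against control was -1.04 ± 0.24 (limma adjusted p = 0.0829). For CD8A the values were -4.17, -3.70, -3.68 and -3.46 with dexamethasone+clenbuterol, -4.45, -3.82, -2.62 and -2.26 with dexamethasone, and -1.93, -3.32, -3.34 and -3.84 in controls. These groups overlapped throughout, with a dexamethasone change of -0.18 ± 0.49 (limma adjusted p = 0.924), which was 0.21 ± 0.45 without dexamethasone replicate 1 (limma adjusted p = 0.862). An alpha chain can also pair with itself, on natural killer and some other cells.

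The adhesion molecule CD2 and the kinase ZAP70 had changes of -0.66 and -0.73 for dexamethasone against control, neither called (limma adjusted p = 0.384 and 0.205). ZAP70 had another, dimmer probe, above background on 5 arrays, whose difference was 0.55 in the opposite direction, so the probes for this gene disagree. Over the 6 measured T cell members the dexamethasone changes were all below 0, with a median of -0.76. Without dexamethasone replicate 1 the median was -0.81, with 5 of 6 below 0. The probe for CD4 was at background, at -7.34, -7.42, -6.75 and -7.78 in dexamethasone+clenbuterol bulls, -7.47, -6.65, -6.03 and -7.88 in dexamethasone bulls, and -7.89, -7.59, -8.22 and -6.57 in controls, which gives no order between groups.

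**Figure D2:**
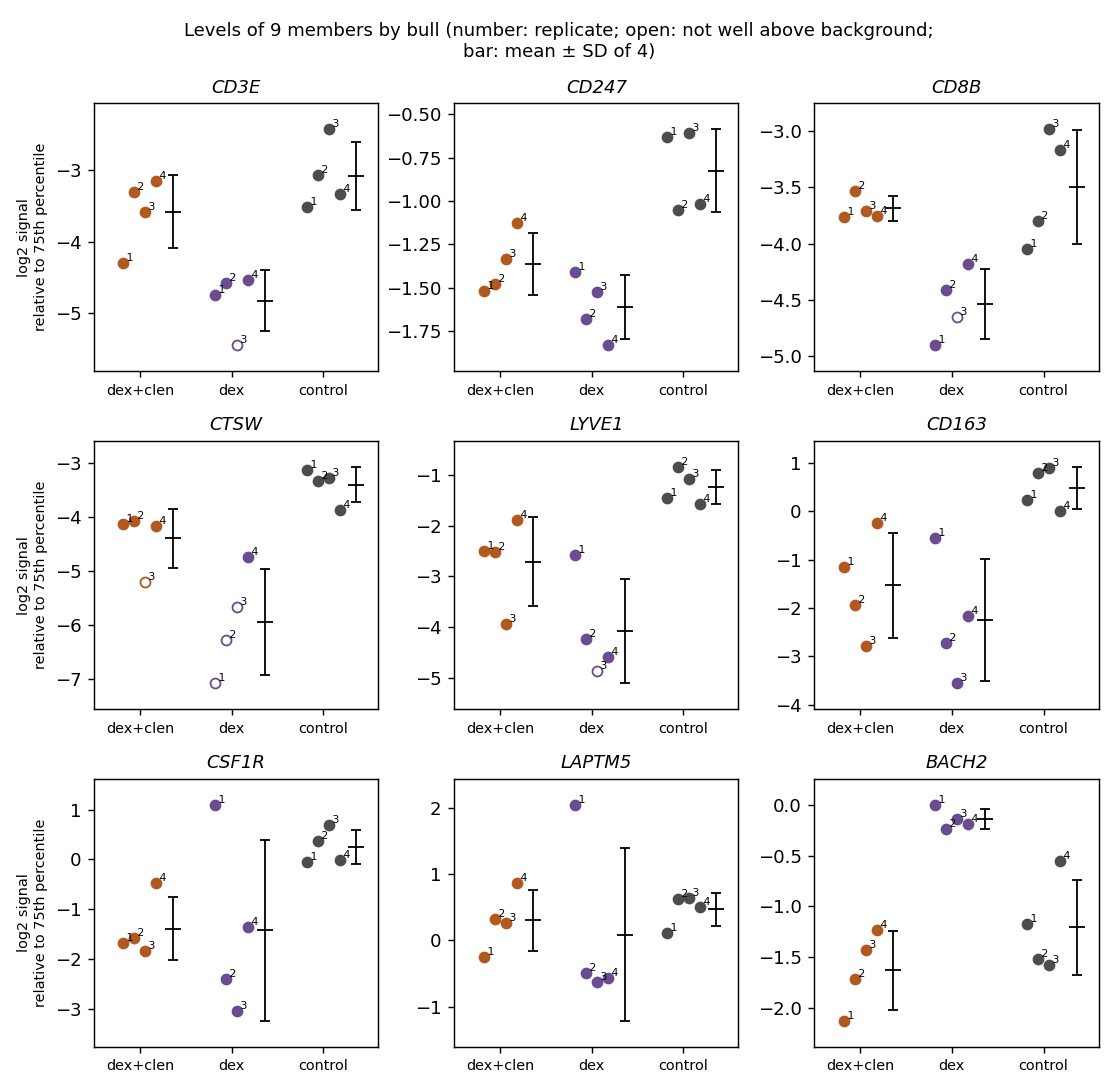
Log2 signal relative to the array's 75th percentile (vertical axis, scaled per gene) for 9 members, by group (across). Points are bulls with their replicate number, open points are not well above background, and bars are the mean ± SD of 4 bulls. All 4 dexamethasone bulls lie below all controls for CD3E, CD247, CD8B, CTSW, LYVE1 and CD163 and above them for BACH2, and replicate 1 lies far above its group for CSF1R and LAPTM5.

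CTSW encodes cathepsin W, a cysteine protease made mainly by cytotoxic T and natural killer cells. It had -4.12, -4.07, -5.21 and -4.16 in dexamethasone+clenbuterol bulls, -7.07, -6.27, -5.67 and -4.74 in dexamethasone bulls, and -3.11, -3.32, -3.27 and -3.85 in controls. No treated value reached a control value, and the probe was well above background in 3 dexamethasone+clenbuterol bulls, 1 dexamethasone bull and 4 controls. Means were -5.94 ± 0.98 with dexamethasone and -3.39 ± 0.32 in controls (SD, n = 4 each). The change was -2.55 ± 0.43 (SE), 5.84-fold lower, with a limma adjusted p of 0.0260. Since 3 of the 4 dexamethasone values were at background, the size of this change is less well measured than its direction. It was -2.48 within scan day 2 and -1.50 on the other days. CTSW was called in 13 of 23 alternative settings, with the same sign in all 23 and adjusted p between 0.0104 and 0.239.

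The other cytotoxic members were not called. NKG7, a granule membrane protein of cytotoxic lymphocytes, was at -3.58, -3.28, -3.36 and -3.88 in dexamethasone+clenbuterol bulls, -1.97, -4.05, -3.31 and -3.25 in dexamethasone bulls, and -3.48, -3.07, -3.65 and -3.36 in controls. Apart from dexamethasone replicate 1, which was the highest of 12, the groups lay over each other. The change was 0.24 ± 0.35 (limma adjusted p = 0.828), and without that animal it was -0.15 ± 0.24 (limma adjusted p = 0.800). The chemokine CCL5, which attracts T cells and monocytes, changed by -0.90 ± 0.65 (limma adjusted p = 0.623), and control replicate 1 (-5.21) lay among the low dexamethasone values.

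Of the B cell list, CD79A, a signalling chain of the B cell receptor, and BACH2 were measured, both on all 12 arrays. BACH2 is a transcriptional repressor that restrains differentiation of B and T cells and is also made outside leukocytes, and its probe was named through the human match in its description. It stood at -2.12, -1.72, -1.43 and -1.23 in dexamethasone+clenbuterol bulls, -0.01, -0.24, -0.14 and -0.19 in dexamethasone bulls, and -1.17, -1.51, -1.58 and -0.55 in controls. The dexamethasone bulls were tightly grouped above all the others, with control replicate 4 the nearest. The change for dexamethasone against control was 1.06 ± 0.24 (limma adjusted p = 0.0813). CD79A changed by 0.26 ± 0.22 (limma adjusted p = 0.691).

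Among macrophage and myeloid genes, LYVE1 encodes a hyaluronan receptor of lymphatic endothelium and of some resident tissue macrophages. Its values were -2.50, -2.52, -3.94 and -1.88 in dexamethasone+clenbuterol bulls, -2.58, -4.24, -4.88 and -4.60 in dexamethasone bulls, and -1.46, -0.85, -1.07 and -1.56 in controls. All 8 treated bulls were below all controls, and dexamethasone replicates 2 to 4 were the lowest of all, with replicate 3 not well above background. Means were -4.07 ± 1.03 with dexamethasone and -1.24 ± 0.33 in controls (SD, n = 4 each). The dexamethasone change was -2.84 ± 0.50 (SE), 7.14-fold lower, with a limma adjusted p of 0.0312. The difference was -2.33 within scan day 2 and -3.47 on the other days. The call held in 12 of 23 alternative settings, with the same sign in all 23 and adjusted p between 0.00423 and 0.435.

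Because LYVE1 has another source, the lymphatic endothelium list was read beside it. Of its 10 genes, 5 were measured and 0 were called by limma. At an unadjusted limma p under 0.05 there was 1 of 5, against 12.3% of all genes. The median dexamethasone change of the measured genes was -0.35, or -0.89 without dexamethasone replicate 1. For dexamethasone+clenbuterol against control their median was 0.38, with 4 of 5 above 0, where LYVE1 changed by -1.47. The mean level of those genes, relative to controls, was -1.35 to 0.00 in dexamethasone bulls and -0.65 to 0.54 in controls. RELN had the smallest p of that list, with a change of -1.99 ± 0.74 (limma adjusted p = 0.295). PROX1, the defining transcription factor of lymphatic endothelium, was not measured. The part of lymphatic vessels in the LYVE1 result was not tested.

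CD163 is the haemoglobin-haptoglobin scavenger receptor of tissue macrophages, and its probe was above background on all arrays. It had -1.16, -1.93, -2.78 and -0.25 in dexamethasone+clenbuterol bulls, -0.55, -2.73, -3.55 and -2.16 in dexamethasone bulls, and 0.24, 0.79, 0.90 and 0.00 in controls. Again all 8 treated bulls were below all 4 controls, with wide spread among the treated. The dexamethasone change was -2.73 ± 0.62, a 6.65-fold lower signal, with a limma adjusted p of 0.0778. Without dexamethasone replicate 1 it was -3.30 with a limma adjusted p of 0.0115. Other probes described as similar to CD163 belong to other gene numbers and were not used.

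CSF1R, the receptor for the growth factor that keeps macrophages alive, was at -1.68, -1.58, -1.83 and -0.47 in dexamethasone+clenbuterol bulls, 1.09, -2.40, -3.05 and -1.35 in dexamethasone bulls, and -0.04, 0.37, 0.69 and 0.00 in controls. Dexamethasone replicate 1 was the highest of 12 and its 3 companions were below all controls. The change was -1.68 ± 0.70 (limma adjusted p = 0.348), and without that animal it was -2.52 with a limma adjusted p of 0.0122. CD14, the lipopolysaccharide co-receptor of monocytes and macrophages, was at -3.45, -3.75, -4.27 and -3.13 in dexamethasone+clenbuterol bulls, -1.95, -4.25, -4.39 and -3.35 in dexamethasone bulls, and -3.18, -2.62, -3.00 and -2.88 in controls. The same animal was again highest and the change was -0.57 ± 0.45 (limma adjusted p = 0.672), or -1.08 ± 0.31 without it (limma adjusted p = 0.116).

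CD68, a lysosomal protein of macrophages, was dim. It had -5.82, -5.98, -4.78 and -6.51 in dexamethasone+clenbuterol bulls, none well above background, then -3.62, -6.42, -6.18 and -5.52 in dexamethasone bulls, 2 of them above background, and -5.64, -5.50, -5.40 and -6.05 in controls, 3 of them above background. Only the first dexamethasone bull was clearly set off, and nothing was called: the dexamethasone change was 0.21 with that bull and -0.39 without it. The mannose receptor MRC1 changed by -1.23 ± 0.85 (limma adjusted p = 0.603) and varied widely within every group, from -4.05 to -0.51 among dexamethasone+clenbuterol bulls. AIF1, an actin-binding protein of macrophages, changed by -1.53 ± 0.67 (limma adjusted p = 0.377), or by -2.32 ± 0.41 without the first dexamethasone bull (limma adjusted p = 0.0168). In dexamethasone replicates 2 and 3 AIF1 was not well above background, so the size of its change is less well measured. The adaptor chains FCER1G and TYROBP, which pass signals of Fc and other receptors, had changes of -0.26 and 0.15, and of -0.58 and -0.24 without dexamethasone replicate 1, none called. Over the 9 measured macrophage and myeloid members the median dexamethasone change was -1.23, with 7 changes below 0, and without dexamethasone replicate 1 it was -1.59, with 9 below 0.

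PTPRC (CD45), the phosphatase on the surface of all leukocytes, had -3.03, -2.89, -2.77 and -2.71 in dexamethasone+clenbuterol bulls, -2.10, -3.83, -3.77 and -3.53 in dexamethasone bulls, and -2.58, -2.52, -2.39 and -2.65 in controls. Dexamethasone replicate 1 was the highest of 12 and the other 3 were the lowest of 12, with replicate 3 not well above background. With all 4 the change was -0.77 ± 0.31 (limma adjusted p = 0.338), and without replicate 1 it was -1.17 ± 0.15 (limma adjusted p = 0.00461). LAPTM5, a lysosomal membrane protein of blood cells, was at -0.25, 0.33, 0.26 and 0.87 in dexamethasone+clenbuterol bulls, 2.04, -0.50, -0.63 and -0.57 in dexamethasone bulls, and 0.11, 0.62, 0.64 and 0.50 in controls. The pattern was the same, with a change of -0.38 ± 0.51 (limma adjusted p = 0.815), or -1.03 ± 0.24 without replicate 1 (limma adjusted p = 0.0558). The actin regulators LCP1 and CORO1A and the integrin chain ITGB2 had changes of -1.63, -1.09 and -0.64, none called. Without replicate 1 the changes were -2.25, -1.55 and -1.05, with LCP1 and ITGB2 then called. LCP1 and CORO1A were not well above background in dexamethasone replicates 2 and 3.

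Without dexamethasone replicate 1, on 3 dexamethasone arrays, 261 of 13670 genes (1.91%) and 10 of 25 members were called, all 10 lower than control. They were PTPRC, ITGB2 and LCP1, the T cell genes CD3E and CD247, CTSW, and the macrophage genes CD163, CSF1R, LYVE1 and AIF1. The members' median change was then -1.05, against 0.07 over all genes. Since replicate 1 was set apart by high values of many of these same members, lower changes without it are in part built in. Of the 3 arrays left, replicates 2 and 3 had 16 and 10 of the 34 members well above background. Without dexamethasone replicates 2 and 3, the arrays of that group with the lowest share of spots above background, 6 genes and 0 members were called and the members' median was -0.25. Restricted to probes above background on all 12 arrays, 10 members remained, 0 were called, and their median was -0.28. Within scan day 2 the members' median difference was -0.73, and on the other days -0.57, with 20 of 25 below 0 in each. Over all genes these medians were -0.01 and 0.05. Day 2 had control replicate 4 alone and the other days dexamethasone replicate 4 alone, so the members' differences in each share 1 bull.

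**Figure D3:**
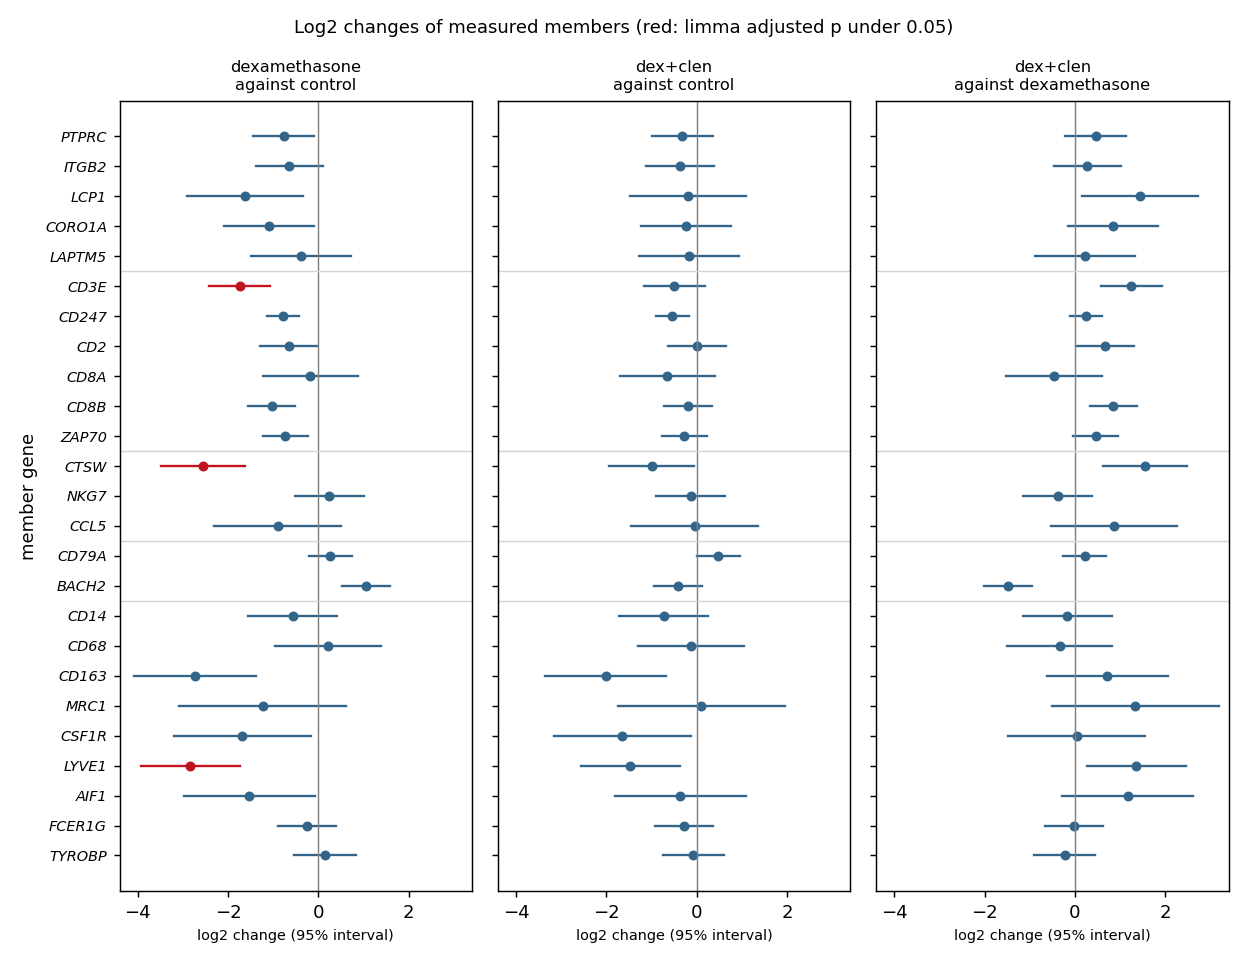
Log2 change of the 25 measured members (down) with its 95% interval from limma, for dexamethasone against control (left), dexamethasone plus clenbuterol against control (middle) and dexamethasone plus clenbuterol against dexamethasone (right). Red marks an adjusted p under 0.05. Red is seen for CD3E, CTSW and LYVE1 in dexamethasone against control, and no member is red in the other panels.

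For dexamethasone+clenbuterol against control, 0 of 25 members were called by limma, where 0.0439% of all genes were (6 of 13670), and 6 of 25 members had an unadjusted p under 0.05, against 12.1% of all genes. Of the 25, 22 had a change below 0, against 46.2% of all genes, and the median was -0.27, against 0.03 over all genes. Values of all 4 treated bulls lay below all controls for 6 members, against 3.72% of all genes. Those members were PTPRC, CD247, CTSW, CD163, CSF1R and LYVE1. This comparison shares its controls with the one above, so likeness between them is in part built in.

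The largest of these changes was that of CD163, -2.01 ± 0.62 or 4.04-fold lower (limma adjusted p = 0.258). CSF1R followed with -1.65 ± 0.70 (0.380), then LYVE1 with -1.47 ± 0.50 (0.296) and CTSW with -0.999 ± 0.43 (0.381), all as log2 change ± SE with limma adjusted p. CD247 changed by -0.54 ± 0.17 (limma adjusted p = 0.265), and PTPRC by -0.31 ± 0.31 (limma adjusted p = 0.713). For CD163 the 95% interval ran from -3.36 to -0.67 on the log2 scale. CD3E changed by -0.50 ± 0.31 and overlapped the controls. Of the 3 members with a change above 0, CD79A had 0.48 ± 0.22 (limma adjusted p = 0.411) and the others, CD2 and MRC1, 0.01 and 0.10. Within scan day 2 the members' median was -0.44 with 22 below 0, and on the other days -0.20 with 17 below 0. The former rests on control replicate 4 alone and the latter on dexamethasone+clenbuterol replicate 4 alone. No slide held arrays of both groups, so slide and treatment cannot be told apart here.

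Dexamethasone+clenbuterol against dexamethasone asks whether the 2 regimens differ. It shares its dexamethasone bulls with dexamethasone against control, so an opposite direction in these comparisons is in part built in. By limma, 0 of 25 members were called, where 0.0146% of all genes were (2 of 13670), and 7 of 25 had an unadjusted p under 0.05, against 11.0% of all genes. The change was above 0 for 18 members and below 0 for 7, where 47.7% of all genes were below 0, and the median was 0.46, against 0.02 over all genes. Without dexamethasone replicate 1 the members' median was 0.73, against -0.02 over all genes. CD3E and CD8B were above every dexamethasone bull in all 4 dexamethasone+clenbuterol bulls, 2 members against 2.53% of all genes. BACH2 was below every dexamethasone bull in all 4, 1 member against 2.77% of all genes. CD3E differed by 1.24 ± 0.31 (limma adjusted p = 0.179), with a 95% interval from 0.57 to 1.92. CD8B differed by 0.85 ± 0.24 (limma adjusted p = 0.229) and BACH2 by -1.48 ± 0.24 (limma adjusted p = 0.143), with a 95% interval from -2.02 to -0.95. CTSW differed by 1.55 ± 0.43 (limma adjusted p = 0.219) and LYVE1 by 1.36 ± 0.50 (limma adjusted p = 0.351). CSF1R differed by 0.04, with an interval from -1.48 to 1.56, and by 0.88 without dexamethasone replicate 1 (limma adjusted p = 0.384). Its sign differed in 9 of 24 alternative settings. Without dexamethasone replicate 1, 2 members were called among 0.541% of all genes: PTPRC, higher by 0.86 (limma adjusted p = 0.0403), and BACH2, lower with a change of -1.44 (limma adjusted p = 0.0484).

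Replicates 1 to 3 of both treatments were scanned on day 2, which allowed a contrast of 3 arrays against 3 within a day. The dexamethasone arrays were on slide 2 and the dexamethasone+clenbuterol arrays on slide 3. Slide and treatment thus cannot be told apart in this contrast. There, 17 of 25 members were above 0, with a median of 0.34. CD3E differed by 1.20, CD8B by 0.99, CTSW by 1.87 and BACH2 by -1.63 in that contrast. BACH2 against control was less even: within scan day 2 dexamethasone differed by 0.43 and dexamethasone+clenbuterol by -1.20, both against control replicate 4 alone, and on the other days the differences were 1.24 and 0.19.

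**Figure D4:**
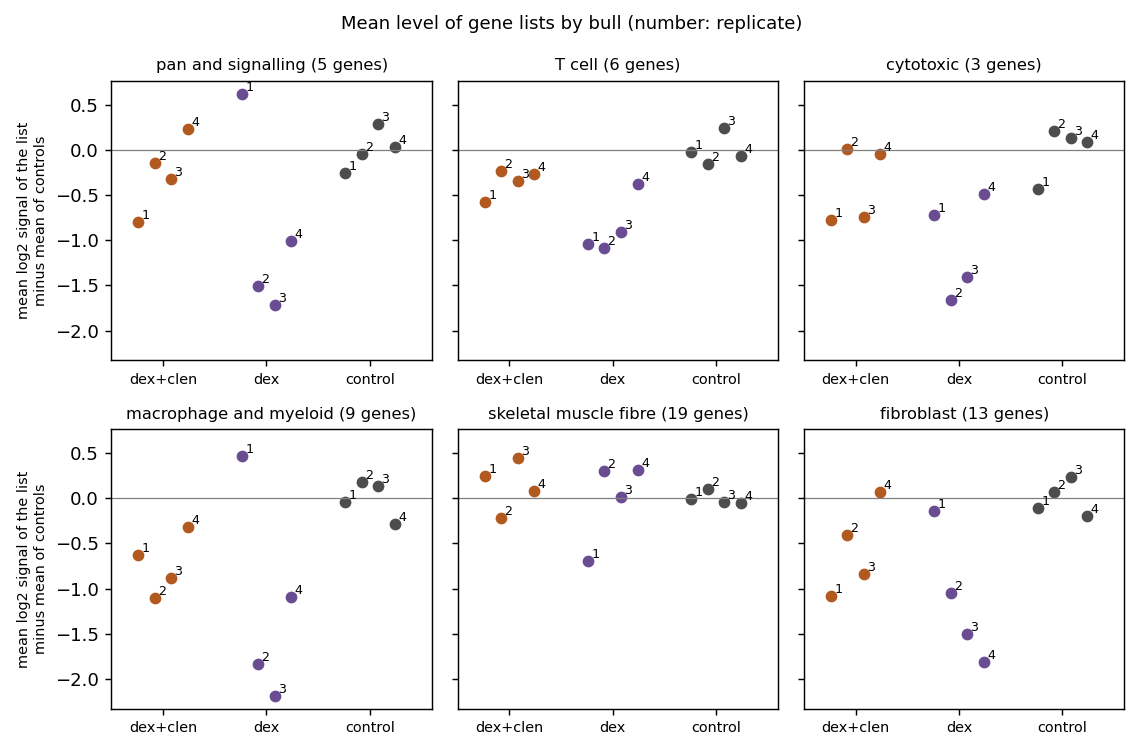
Mean log2 signal of the measured genes of 6 lists, minus the mean of the controls (vertical axis), by group (across), with each bull's replicate number. Dexamethasone replicate 1 lies at the top for pan-leukocyte and macrophage genes, among its group for T cell genes and at the bottom for muscle fibre genes, and the fibroblast list is below 0 in all 4 dexamethasone bulls.

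Further markers of the same cells, taken as lists, held 0 genes called by limma in any comparison with all arrays. Of 31 further macrophage and dendritic cell genes, 19 were measured, with median changes of -0.60 for dexamethasone+clenbuterol and -0.35 for dexamethasone, each against control. Complement subunits, which resident macrophages make, led them by p: C1QA changed by -2.22 ± 0.52 with dexamethasone (limma adjusted p = 0.0830), and C1QC by -1.53 ± 0.59 with dexamethasone+clenbuterol (limma adjusted p = 0.350). Dexamethasone replicate 1 was the highest of 12 for 12 of those 19 genes. Without that animal the dexamethasone median of the list was -0.90. Then 4 of the 19 genes were called lower, C1QA, C1QB, C1QC and LYZ, where 1.91% of all genes were called. Of 25 further T cell and homing genes, 10 were measured, with medians of 0.14 with dexamethasone+clenbuterol and -0.08 with dexamethasone. Their smallest dexamethasone p was that of TCF7, a T cell transcription factor, at -0.83 ± 0.28 (limma adjusted p = 0.245). Of these 10 genes, 3 were below 0 with dexamethasone+clenbuterol and 6 with dexamethasone. Their dexamethasone median was 0.12 without dexamethasone replicate 1, with 5 below 0. CXCR4 was then called lower, where 1.91% of all genes were called.

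Of 23 further pan-leukocyte genes, 15 were measured, with medians of 0.04 and -0.30 in the same order. The dexamethasone median was -0.69 without dexamethasone replicate 1, and CD53, CD48 and SPI1 were called lower, where 1.91% of all genes were called. Among 20 further cytotoxic and natural killer genes 5 were measured, with medians of -0.02 and -0.35. CST7, an inhibitor of granule proteases, was well above background in 2 dexamethasone+clenbuterol bulls, 0 dexamethasone bulls and 4 controls. Its changes in the same order were -0.64 ± 0.49 (limma adjusted p = 0.618) and -1.78 ± 0.49 (limma adjusted p = 0.140). For 18 further B cell and plasma cell genes, 7 were measured, with medians of 0.11 and 0.10, and for 16 neutrophil and mast cell genes, 7 were measured, with medians of 0.24 and -0.19. Of 15 red cell and platelet genes, 4 were measured, with medians of 0.39 and 0.20. At an unadjusted limma p under 0.05 there were, for dexamethasone+clenbuterol and then for dexamethasone against control, 4 and 3 of the macrophage genes, 1 and 3 of the T cell genes, 1 and 3 of the pan-leukocyte genes, 0 and 1 of the cytotoxic genes and 2 and 1 of the B cell genes. No neutrophil, mast cell, red cell or platelet gene reached it in either comparison. Over all genes, 12.1% and 12.3% reached it in the same order.

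Other cell types of muscle moved as follows, and their part in the leukocyte results was not tested. Fibroblast genes had medians of -0.63 for dexamethasone+clenbuterol and -1.19 for dexamethasone against control over 13 of 15 measured genes, and OSR1, which encodes a zinc finger factor of connective tissue cells, was called lower with dexamethasone at -2.59 ± 0.49 (limma adjusted p = 0.0391). The mean fibroblast level relative to controls was -1.08 to 0.07 in dexamethasone+clenbuterol bulls, -1.81 to -0.15 in dexamethasone bulls and -0.19 to 0.24 in controls. None was called by limma among blood endothelium (14 of 14 measured, medians of 0.44 and 0.17), smooth muscle and pericyte (13 of 13, 0.35 and 0.20), adipocyte (8 of 11, -0.02 and 0.04) or skeletal muscle fibre genes (19 of 22, 0.12 and -0.06). At an unadjusted p under 0.05 there were 3 and 8 of the 13 fibroblast genes, 6 and 4 of the blood endothelium genes, 2 and 1 of the smooth muscle genes, 1 and 2 of the adipocyte genes and 0 and 0 of the fibre genes. Over all genes the shares at that threshold were 12.1% and 12.3%. All 4 treated bulls lay below all controls for 3 of the 13 fibroblast genes with dexamethasone+clenbuterol, against 3.72% of all genes. With dexamethasone they did so for 6 of the 13, against 3.93% of all genes. Without dexamethasone replicate 1 the dexamethasone median of the fibroblast list was -1.34, with PDGFRA, DCN, MFAP5 and OSR1 called lower. The fibre list then had a median of 0.17, with none called. In that setting 1.91% of all genes were called.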

How the data were processed

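The deposited scanner files hold spot intensity, not yet in logs, from Agilent Feature Extraction 9.5.1.1 per the file headers. The authors also deposited a value table of intensity, which served as an alternative and about whose making the labels and headers say nothing. The processed signal was put on the log2 scale, the 75th percentile of its array was subtracted, outlier spots (1 to 7 per array) were left out and saturated spots (3 to 10) kept. Spots of a probe were averaged. A probe was kept (14702 of 21475) if 4 or more arrays read it well above background, and the brightest probe stood for a gene. Names came from the files, brought up to date with RefSeq's genes (assembly ARS-UCD2.0, names alone): 10098 probes matched by gene number, 3413 by accession, 395 by symbol and 3365 by the human gene described, and 4203 kept the file's name. The CD4 probe was named by its description. Probes were not mapped anew.

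All 12 arrays entered limma 3.58.1 in R 4.3.3 (lmFit with 3 group means, eBayes), with two-sided p-values adjusted by Benjamini-Hochberg over all genes of a comparison and called under 0.05. On simulated data for dexamethasone against control (5 simulations of 13670 genes, 200 changed), a log2 change of 1 was recovered for 47.4% and of 2 for 86.0% of changed genes, with 8.2 false calls on average. The number of arrays limits precision. Members, marker lists and alternatives were chosen with earlier results of these data known. Per-array values are given for members called or without overlap between groups, 1 further member of each subgroup, PTPRC, CD4, CD8A, CD14, CD68 and CD163. Other lists give called genes or, for some lists only, that of smallest p.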

Additional observations from a re-analysis of the deposited data

Results flagged for a closer look

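LAPTM5 in the dexamethasone group held 1 animal far from the others: replicate 1 was at 2.04 on the log2 scale, where the other 3 lay between -0.63 and -0.50. CTSW in the dexamethasone+clenbuterol group did so too: replicate 3 was at -5.21, not well above background, where the other 3 lay between -4.16 and -4.07. Of 75 groups of 4 examined in this way, 2 held such a value, where chance gives about 1 in 20, or 3.75 of 75. BACH2 stood out because the bulls of each treatment lay on opposite sides of the control mean: every dexamethasone+clenbuterol bull was below it, by -0.92 to -0.02, and every dexamethasone bull above it, by 0.97 to 1.20. Neither change against control passed the threshold, with -0.42 (limma adjusted p = 0.505) for dexamethasone+clenbuterol, whose bulls overlapped the controls, and 1.06 (limma adjusted p = 0.0813) for dexamethasone. The dexamethasone+clenbuterol difference from control was -1.20 within scan day 2, against control replicate 4 alone. It was 0.19 on the other days, between arrays scanned on different days. The difference between both treatments was -1.48 with a limma adjusted p of 0.143, which did not pass either.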

How the results depend on the processing

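Each of 24 alternatives was run, 12 of them leaving out 1 array. The 1 without dexamethasone replicates 2 and 3 was chosen after seeing the data, as were the differences by scan day. For dexamethasone against control the genes called numbered 25 with no filter on dim probes, 13 with scan day 2 as a block, 0 with every scan day as a block, and 6 without dexamethasone replicates 2 and 3, and 24 to 261 with 1 array left out. Members called numbered 0 in those 4 settings and among probes above background on all 12 arrays, and 0 to 10 with 1 array left out. The members' median was -0.28 among such probes and -0.25 without dexamethasone replicates 2 and 3. For dexamethasone+clenbuterol against control, genes called numbered 2 with the mean of a gene's probes, 3 with the compared groups alone, 3 with quantile normalization, 0 with no filter, the all-array filter, either scan-day block, slide as a random block or without both arrays, and 0 to 11 with 1 array left out. For dexamethasone+clenbuterol against dexamethasone they numbered 1 with normexp and with the all-array filter, 0 with the mean of probes, median centring, no filter, the compared groups alone, quantile normalization, either scan-day block, the slide block, the authors' table or without both arrays, and 0 to 74 with 1 array left out, where members called numbered 0 to 2. The causes were not tested. Of 981 values for the members given per array, 938 kept direction and side of the threshold or stayed uncalled, 35 lost a call and 8 gained one, and 32 uncalled values changed sign. No called value changed sign. No paired analysis was possible because the replicate numbers only name samples in the order they were listed. Signal over background limits CTSW, CD68 and the 9 unmeasured members most, and among the arrays replicates 2 and 3 of dexamethasone. It limits other members too. LCP1, CORO1A, CD2, ZAP70, CCL5, AIF1 and FCER1G were well above background on 2 of 4 dexamethasone arrays. PTPRC, CD3E, CD8B, CD14, MRC1 and LYVE1 were so on 3 of 4.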
